A study of Homo sapiens with 6 samples.

Results

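The SOX family of transcription factors was examined through 10 of its genes in 1205Lu cells, an established line of human metastatic melanoma. The genes were taken by symbol from a table of 23368 genes: SOX10, SOX9 and SOX8 of the SOXE group, SOX5, SOX6 and SOX13 of the SOXD group, SOX4, SOX11 and SOX12 of the SOXC group, and SOX2 of the SOXB1 group. All 10 were in the table and 8 had enough reads for the test. The tested libraries came from flasks transiently transfected with pCMV6-SOX10, a plasmid that expresses SOX10, and they were set against flasks that received the empty pCMV6 plasmid, with 3 biological replicates in each group. Both groups received 7.8 µg of plasmid DNA and the same transfection reagent, and RNA was taken 24 h later. The model is transient, in 1 cell line, and the RNA pools the cells of a flask, whether or not they took up the plasmid.

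SOX proteins bind DNA through a high mobility group (HMG) box, which sits in the minor groove and bends the helix, and their choice of genes depends largely on partner factors bound nearby. SOXE factors direct neural crest, glial, pigment cell and cartilage fates, and they can bind as dimers. SOXD factors lack a transactivation domain of their own and modulate the SOXE factors, while SOXC factors act in progenitor cells and SOXB1 factors keep stem and neural progenitor cells undifferentiated. In melanoma, SOX9 and SOX10 have been described as factors that restrain one another's expression.

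The libraries were shallow and unequal. Reads assigned to genes ran from 2544420 to 4167393 in the SOX10 libraries and from 867917 to 2066520 in the controls. A single read was worth 0.24 to 0.39 CPM in the SOX10 libraries and 0.48 to 1.15 CPM in the controls (CPM, counts per 1000000 assigned reads, here with TMM scaling between libraries). SOX10 replicate 1 and control replicate 3 stood apart from the other 4 libraries in having 93.5 and 97.0 reads outside genes per 100 assigned reads, against 121 to 135, and their part in the results was not tested beyond leaving both out. The 7 of 12 melanocyte and melanoma markers with at least 1 CPM in every library included SOX10, S100B, ERBB3, PAX3, TFAP2A and MITF, while the pigment genes PMEL, MLANA, TYR, DCT and TYRP1 had 0 to 7 reads per library. Summed over the 12 markers, the level was 1162 to 1324 CPM in the SOX10 libraries and 1130 to 1281 CPM in the controls. Markers of epithelium, leukocytes, endothelium and fibroblasts each summed to at most 18.3 CPM in any library.

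No SOX gene passed the test between the groups. Of the 8 tested members 0 were called by the quasi-likelihood test of edgeR at an adjusted p under 0.05, where 12 of all 10678 tested genes, or 0.112%, were called. DESeq2 and limma-voom also called 0, but DESeq2 gave no adjusted p for SOX4 and SOX2 and so could not call them. Unadjusted by edgeR, 2 members had a p below 0.05, SOX4 and SOX9, both lower in the SOX10 libraries. Of all tested genes, 6.23% did so in either direction and 3.52% on the lower side. In bulk RNA of a flask, fewer cells with a transcript and less of it per cell cannot be told apart. The median log2 fold change of the tested members was -0.055, beside 0.0076 for all tested genes, and their values ran from -1.42 for SOX4 to 0.35 for SOX10.

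**Figure D1:**
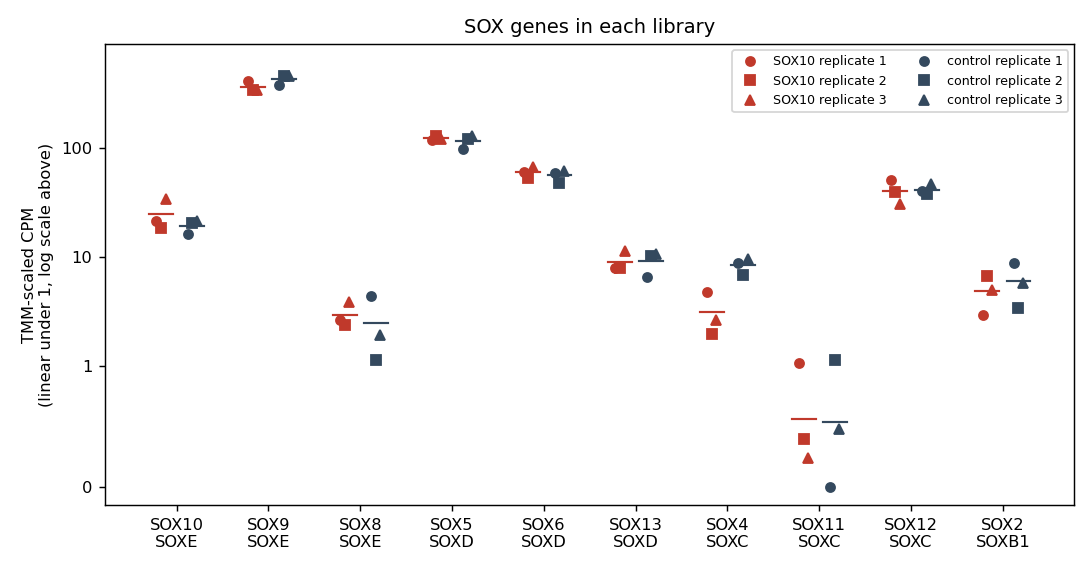
TMM-scaled CPM of the 10 SOX genes (y axis, linear under 1 and logarithmic above) in each SOX10 library (red) and each control library (dark blue), with a bar at each group's mean of 3 libraries. SOX9 is highest in every library, at 342 to 412 CPM in the SOX10 libraries and 377 to 460 CPM in the controls, and for SOX4 the groups do not overlap.

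SOX10, the transfected factor of the neural crest, pigment cells and Schwann cells, was counted at 21.5, 18.6 and 34.3 CPM in the SOX10 libraries and at 16.4, 20.6 and 21.3 CPM in the controls. SOX10 replicate 3 was the highest library, while replicate 2 lay inside the range of the controls. The log2 fold change was 0.35 (95% confidence interval -0.20 to 0.90), with an adjusted p of 0.927 by edgeR. As a fold the interval ran from 0.87 to 1.87, so a 2-fold rise of SOX10 reads lay outside it. The log2 fold change was 0.030 without SOX10 replicate 3, at most 0.50 without any other single library, and 0.55 without SOX10 replicate 1 and control replicate 3. The label on the SOX10 libraries could thus not be checked from these reads, and directions below are those between libraries labelled SOX10 and control. Gene counts do not tell plasmid transcripts from transcripts of the cells' own gene. SOX10 shares 89 exonic bases, or 2.40% of its own, with POLR2F on the opposite strand in GENCODE release 29. POLR2F, an RNA polymerase subunit, had a log2 fold change of 0.11 (95% confidence interval -0.27 to 0.49).

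SOX9, a SOXE relative of SOX10 and the regulator of cartilage and testis development, was the most abundant SOX gene. It stood at 412, 342 and 343 CPM in the SOX10 libraries and at 377, 456 and 460 CPM in the controls. SOX10 replicate 1 lay above control replicate 1, so the groups overlapped. The log2 fold change was -0.24 (95% confidence interval -0.47 to -0.013), with an unadjusted p of 0.0391 and an adjusted p of 0.766 by edgeR. Over 16 other settings it ran from -0.34 to -0.18, and the adjusted p stayed at or above 0.397.

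SOX8, a SOXE factor that overlaps SOX10 in function in glia, was near the lower limit of the libraries. It had 10, 6 and 16 reads in the SOX10 libraries and 4, 1 and 4 reads in the controls, which was 2.96 ± 0.78 CPM and 2.49 ± 1.69 CPM (SD, n = 3 each). The groups overlapped, and SOX8 reached the filter's 4.34 CPM in 0 libraries, so it was not in the main test. In a fit with no low-count filter its log2 fold change was 0.35 (95% confidence interval -1.10 to 1.80), with an adjusted p of 0.952 by edgeR, so even a 2-fold difference was not detectable at this depth.

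The ratio of SOX9 to SOX10 was lower in each SOX10 library than in each control. Per kilobase of the longest transcript, SOX9 exceeded SOX10 by 14.0, 13.5 and 7.32 times in the SOX10 libraries and by 16.8, 16.2 and 15.8 times in the controls. SOX10 replicate 3 was the lowest, and the mean ratio was 11.6 ± 3.72 in the SOX10 libraries and 16.3 ± 0.48 in the controls (SD, n = 3 each). An exact permutation test on the log2 ratios, two-sided, gave p = 0.10, the smallest that 3 libraries against 3 can give. Complete separation of the groups fixes this value, so it adds nothing to the order of the ratios. Neither SOX9 nor SOX10 separated the groups on its own. Among single tested genes, 11.7% did not overlap in either direction, and no such figure is given for ratios of genes. The ratio was computed after both genes had been seen, and it rests on 15 to 44 SOX10 reads per control library. The longest run of identical bases between SOX9 and SOX10 transcripts was 45 bases, and that between SOX9 and SOX8 was 37, so a read shorter than these within such a run could not be given to 1 gene.

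**Figure D2:**
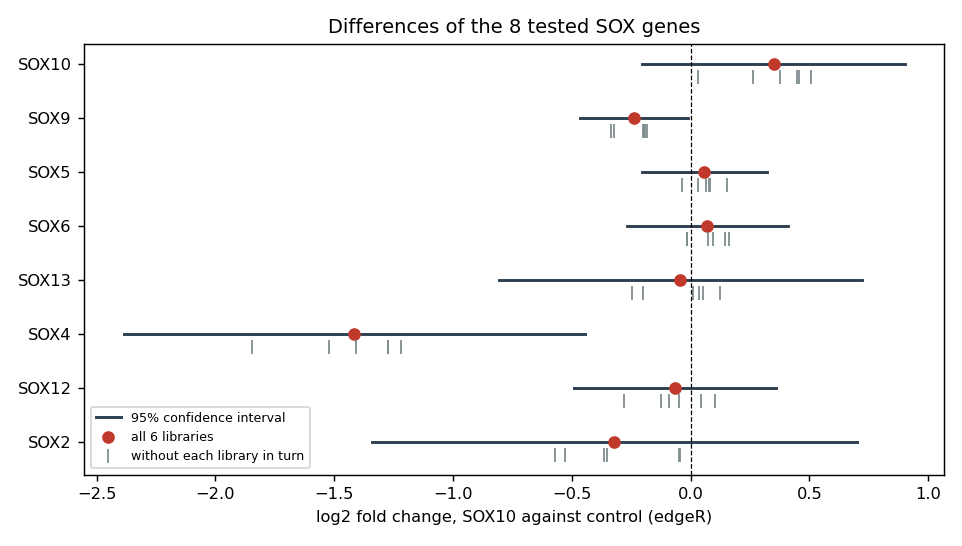
Log2 fold change of SOX10 against control libraries (x axis) for the 8 tested SOX genes, with the 95% confidence interval of the edgeR fit as a line and the value without each library in turn as grey ticks. The intervals of SOX4 and SOX9 do not reach 0, and the ticks of SOX5, SOX6, SOX12 and SOX13 lie on both sides of it.

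Of the SOXD genes, SOX5 and SOX6 were measured well, and their intervals left room only for moderate differences. SOX5, which modulates SOX10 activity in melanocytes, stood at 119, 128 and 121 CPM in the SOX10 libraries and at 98.6, 122 and 129 CPM in the controls. The SOX10 libraries fell within the spread of the controls, and the fold was 1.04 (95% confidence interval 0.87 to 1.25). SOX6, which acts with SOX5 on SOX9 targets in cartilage, stood at 59.7, 52.9 and 66.5 CPM in the SOX10 libraries and at 59.2, 48.0 and 61.9 CPM in the controls. These groups overlapped too, with a fold of 1.05 (95% confidence interval 0.83 to 1.33). SOX13, a SOXD factor known from γδ T cells of mice, was lower, with 30, 20 and 47 reads in the SOX10 libraries and 6, 9 and 22 reads in the controls. At 9.05 ± 1.93 CPM and 9.16 ± 2.25 CPM (SD, n = 3 each), its fold of 0.97 had a 95% confidence interval from 0.57 to 1.65. Adjusted p-values of these genes by edgeR ran from 0.968 to 0.998. A 2-fold rise of SOX5 or SOX6 lay outside its interval.

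SOX4, a SOXC factor of progenitor cells and of many tumours, showed the largest difference of the tested members. It was counted with 18, 5 and 11 reads in the SOX10 libraries and 8, 6 and 20 reads in the controls, although the controls were shallower. Scaled, this was 4.78, 1.98 and 2.64 CPM in the SOX10 libraries and 8.76, 6.85 and 9.67 CPM in the controls. All SOX10 libraries lay below all controls, as was the case for 5.99% of all tested genes, and for 11.7% in either direction. The log2 fold change was -1.42 (95% confidence interval -2.39 to -0.44), or 0.37 times the control level, with an unadjusted p of 0.00619. SOX4 had reached the filter in all controls and, of the SOX10 libraries, in replicate 1. The adjusted p by edgeR was 0.483, so SOX4 did not pass the test. Leaving out single libraries gave values from -1.85, without SOX10 replicate 1, to -1.22, without SOX10 replicate 2. Without SOX10 replicate 1 and control replicate 3 it was -1.70, with an adjusted p of 0.676 by edgeR. SOX4 shares 168 exonic bases with the opposite-strand transcript AL512380.2 in GENCODE release 29.

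The other SOXC genes overlapped between the groups. SOX12 stood at 50.7, 39.5 and 30.9 CPM in the SOX10 libraries and at 40.5, 37.7 and 46.4 CPM in the controls. The SOX10 libraries were spread around the controls on both sides, and the fold was 0.95 (95% confidence interval 0.71 to 1.28). SOX11, a factor of neuronal development, had 4, 1 and 1 reads in the SOX10 libraries and 0, 1 and 1 reads in the controls. It lay at most at 1.14 CPM in any library, and no difference was detectable at this depth.

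SOX2, the SOXB1 factor of stem and neural progenitor cells, was low and did not separate the groups. It had 11, 17 and 21 reads in the SOX10 libraries, or 2.92, 6.72 and 5.04 CPM, and 8, 3 and 12 reads in the controls, or 8.76, 3.43 and 5.80 CPM. The log2 fold change was -0.32 (95% confidence interval -1.34 to 0.70), with an adjusted p of 0.957 by edgeR. It was -0.57 to -0.045 without single libraries.

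The long noncoding RNA that surrounds SOX2 was counted almost only in the SOX10 libraries. SOX2-OT, the SOX2 overlapping transcript, runs on the same strand and holds the SOX2 gene within an intron, and the annotated exons of the 2 genes share 0 bases in GENCODE release 29. It is no SOX protein gene. It was listed here as a neighbour of a member, but the rule for named genes does not pick it, and it was chosen for description after its counts were seen. SOX2-OT had 13, 15 and 23 reads in the SOX10 libraries and 0, 0 and 1 reads in the controls, which was 3.45, 5.93 and 5.52 CPM in the SOX10 libraries and 0, 0 and 0.48 CPM in the controls. All SOX10 libraries lay above all controls. Of all tested genes, which do not include SOX2-OT, 11.7% did not overlap in either direction. With 0 reads, a true level of 3 reads cannot be told from none, which without TMM scaling is 3.24 CPM in control replicate 1 and 3.46 CPM in control replicate 2. On that unscaled measure SOX10 replicate 1 had 3.48 CPM. Summed over libraries, there were 51 reads among 10444612 in the SOX10 group, or 4.88 CPM (exact Poisson 95% interval 3.64 to 6.42), and 1 read among 3860015 in the controls, or 0.26 CPM (0.0066 to 1.44).

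At the level of the SOX10 group, 18.9 reads of SOX2-OT would have fallen in the controls. The ratio of the summed levels was 18.9, with an exact binomial 95% interval from 3.23 to 759 that covers counting error only. Of the 23368 genes in the table, only SOX2-OT had as many as 51 reads in the SOX10 group and at most 1 in the controls. Both limits are its own counts, so this describes the counts and tests nothing. SOX2-OT reached the filter of the main test, 4.34 CPM in 3 libraries, in 2 libraries only and was therefore not among the 10678 genes tested. In a fit of all genes with at least 1 CPM in 3 libraries, which SOX2-OT passed only through the SOX10 group, its log2 fold change was 4.02 (95% confidence interval 1.98 to 6.06). The unadjusted p was 0.000333 and the adjusted p by edgeR 0.161, so it did not pass, and in that fit 0.128% of 14035 genes did. With no low-count filter the adjusted p by edgeR was 0.0344, in a fit that called 0.234% of 20538 genes, and by DESeq2 on the genes of at least 1 CPM it was 0.738. Every SOX10 library was deeper than every control, and thinning to 867917 reads each, added once the data had been seen, gave a log2 fold change of 4.64, an unadjusted p of 0.00585 and an adjusted p of 0.705 by edgeR. Without control replicate 3 the remaining controls are at 0, and the fitted 6.61 then depends on edgeR's prior count. The exact permutation test on log2(CPM + 0.5), two-sided, gave p = 0.10, the smallest it can give. As SOX2-OT was chosen after its counts were seen to separate the groups, this value was fixed in advance and adds no support. PMP2, the myelin protein gene that was called between these groups, had a fitted fold of 15.9 on more reads, namely 66, 53 and 103 per SOX10 library and 0, 1 and 4 per control.

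**Figure D3:**
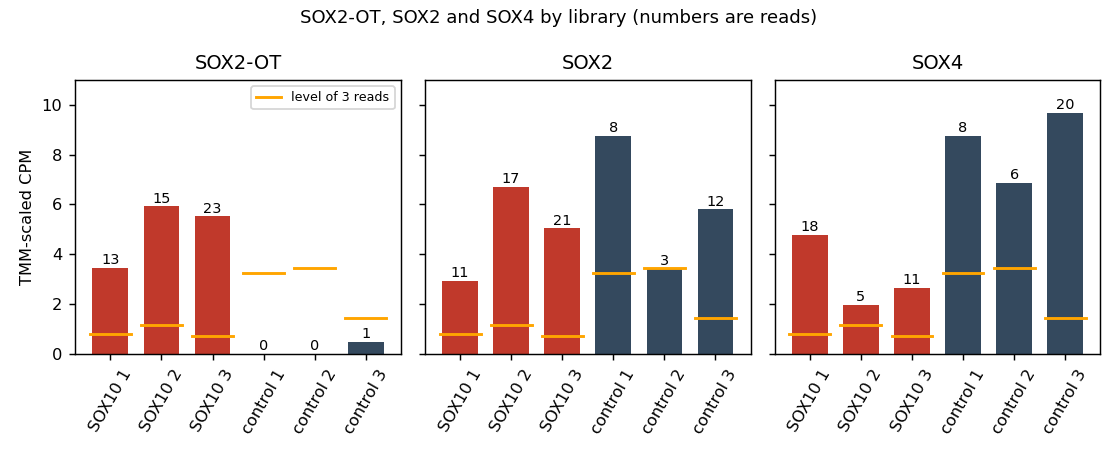
TMM-scaled CPM (y axis, from 0) of SOX2-OT, SOX2 and SOX4 in each SOX10 library (red) and each control library (dark blue), with the number of reads above each bar and the level of 3 reads in that library, without TMM scaling, as an orange line. SOX2-OT has 13 to 23 reads in the SOX10 libraries and 0 to 1 in the controls, SOX2 overlaps between the groups, and SOX4 is lower in each SOX10 library than in each control.

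The 250 bases before the annotated starts of SOX2-OT and of SOX2 are shown because SOX2-OT was counted almost only in the SOX10 libraries and SOX2, on the same strand, in both groups. The sequences are from RefSeq on GRCh38.p14, plus strand, and the counts do not tell which start of SOX2-OT was used. Capitals mark the 6-base words ACAAAG and ACAATG, forms of the SOX binding sequence, searched on both strands, so that CTTTGT and CATTGT mark them on the other strand.
SOX2-OT start 1, chr3:181056430-181056679: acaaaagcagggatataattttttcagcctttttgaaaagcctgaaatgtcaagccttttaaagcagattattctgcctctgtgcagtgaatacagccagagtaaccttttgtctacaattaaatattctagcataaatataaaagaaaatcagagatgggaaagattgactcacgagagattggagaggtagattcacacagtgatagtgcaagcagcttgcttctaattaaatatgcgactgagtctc
SOX2-OT start 2, chr3:181174894-181175143: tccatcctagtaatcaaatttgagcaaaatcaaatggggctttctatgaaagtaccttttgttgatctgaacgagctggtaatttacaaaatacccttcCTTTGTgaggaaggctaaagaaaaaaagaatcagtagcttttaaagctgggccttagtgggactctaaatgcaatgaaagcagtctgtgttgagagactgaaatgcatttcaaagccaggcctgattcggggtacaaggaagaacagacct
SOX2-OT start 3, chr3:181610084-181610333: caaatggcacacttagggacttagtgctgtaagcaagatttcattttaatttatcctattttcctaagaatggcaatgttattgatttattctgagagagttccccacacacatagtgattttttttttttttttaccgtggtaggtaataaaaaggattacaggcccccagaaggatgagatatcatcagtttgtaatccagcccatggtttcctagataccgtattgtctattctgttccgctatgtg
SOX2, chr3:181711675-181711924: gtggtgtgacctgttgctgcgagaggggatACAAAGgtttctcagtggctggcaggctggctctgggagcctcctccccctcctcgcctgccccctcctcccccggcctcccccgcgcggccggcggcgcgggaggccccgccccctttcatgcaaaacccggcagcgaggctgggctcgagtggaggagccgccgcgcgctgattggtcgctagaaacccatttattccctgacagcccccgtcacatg
The second of the 3 SOX2-OT windows held a word, beginning 151 bases before the start, and the SOX2 window held another, beginning 220 bases before it. The words occurred in 21.2% of all 35116 promoter windows of this length, so these matches are a description of the letters only. Of the 10 members 6 had a promoter entry, and SOX10, SOX9, SOX8 and SOX11 had none. The windows of SOX4, SOX12 and SOX13 held no word, that of SOX5 held 2, and 2 of the 5 windows of SOX6 held at least 1.

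Compared per length, the family was made up mostly of SOX9 in both groups. In CPM per kilobase of the longest basic transcript, SOX9 stood at 92.95 ± 10.1 in the SOX10 libraries and at 109.5 ± 11.9 in the controls (SD, n = 3 each). SOX5 followed with 17.6 ± 0.64 in the SOX10 libraries and 16.7 ± 2.27 in the controls. SOX12 stood at 8.72 ± 2.14 in the SOX10 libraries and 8.97 ± 0.96 in the controls. SOX10 itself stood at 8.61 ± 2.91 in the SOX10 libraries and 6.75 ± 0.91 in the controls. SOX6 stood at 6.74 ± 0.76 in the SOX10 libraries and 6.35 ± 0.83 in the controls. SOX9 and SOX5, and SOX5 and SOX12, did not overlap in either group. SOX10 and SOX6 overlapped in both groups, as did SOX13 and SOX2, and SOX4 and SOX8, so their order is not resolved. SOX12 and SOX10 overlapped in the SOX10 libraries and not in the controls, and SOX2 and SOX4 in the controls and not in the SOX10 libraries. SOX11 was the lowest, at 0.065 ± 0.050 CPM per kilobase in the SOX10 libraries and 0.062 ± 0.066 in the controls. With the union of all annotated exons as the length, SOX13 and SOX2 changed places and the other ranks stayed.

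**Figure D4:**
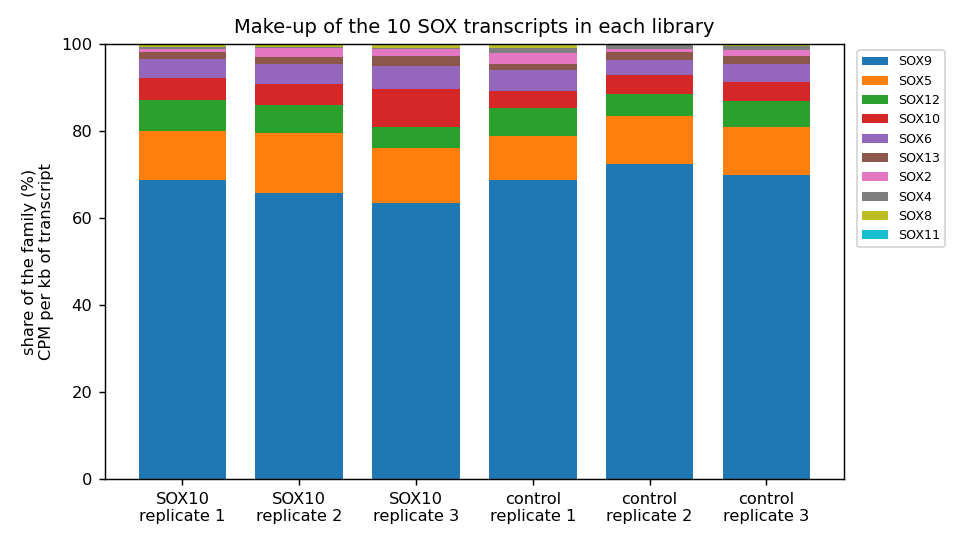
Share of each SOX gene in the summed CPM per kilobase of the 10 genes (y axis, 0 to 100%) in the 3 SOX10 libraries (left) and the 3 control libraries (right). SOX9 makes up 63.4% to 68.8% in the SOX10 libraries and 68.8% to 72.4% in the controls, and SOX10 has its largest share, 8.66%, in SOX10 replicate 3.

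By group, the SOXE genes made up 71.2% to 74.3% of the family's level per kilobase in the SOX10 libraries and 73.9% to 77.1% in the controls. The SOXD genes made up 17.1% to 20.4% in the SOX10 libraries and 16.1% to 16.95% in the controls. These SOXD shares did not overlap between the groups, but the levels of SOX5, SOX6 and SOX13 each did, and no SOXD gene passed the test on its own. Among single tested genes, 11.7% did not overlap in either direction, and no such figure is given for shares. A share also moves with the level of SOX9. The SOXC genes, at 5.20% to 7.82% in the SOX10 libraries and 5.90% to 7.36% in the controls, overlapped.

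The remaining 9 SOX genes looked up were close to absent. SOX14 had 0 reads in all 6 libraries. SOX1, SOX3, SOX7, SOX15, SOX17, SOX18, SOX21 and SOX30 had 0 to 8 reads per library, and none had enough for the test. SOX1 and SOX18 are described further and were picked after their values were seen. They were not the only ones with uneven reads, as SOX21 had all 3 of its reads in SOX10 replicate 3. SOX1, a SOXB1 factor, had 8 of its 9 SOX10-group reads in replicate 1, with 1 read in the controls. SOX18, a factor of blood and lymph vessels, had 9 reads in the SOX10 group and 10 in the controls, of which 7 were in control replicate 1.

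Among genes that work with SOX factors, no partner and no cofactor passed the test. Of 18 partner and upstream factors 13 had enough reads, and by edgeR 0 were higher and 0 lower, with a median log2 fold change of 0.013. Unadjusted, 1 of the 13 partners had a p below 0.05, as did 1 of the 18 cofactors below, both on the lower side, where 3.52% of all tested genes lay (6.23% in either direction). FOXD3, a neural crest factor, had 26, 22 and 31 reads in the SOX10 libraries and 5, 2 and 9 reads in the controls, with a log2 fold change of 0.88 (95% confidence interval -0.077 to 1.84) and an adjusted p of 0.84 by edgeR. ETS1, which acts with SOX10 in neural crest, had -0.26 (95% confidence interval -0.51 to -0.012) and an adjusted p of 0.769. All 18 genes of the list of cofactors, modifiers and degradation factors of SOX proteins were tested, with 0 higher and 0 lower and a median of 0.0021. EP300, a histone acetyltransferase, had a log2 fold change of -0.22 (95% confidence interval -0.44 to -0.0056). PIAS4, a SUMO ligase, had 0.54 (95% confidence interval -0.10 to 1.18).

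Of 28 known targets of SOXE factors 13 were tested, and 1 rose while 0 fell by edgeR, beside 0.112% called over all tested genes. That gene was PMP2, and the list's median log2 fold change was 0.047. The list was drawn up with earlier results of these data known, so its 1 call is not independent of them. PMP2 passed the low-count filter only through the SOX10 libraries, with 0 to 1.93 CPM in the controls. EDNRB, the endothelin receptor of the neural crest, had 29, 9 and 19 reads in the SOX10 libraries and 1, 6 and 3 reads in the controls, with a log2 fold change of 0.98 (95% confidence interval -0.31 to 2.26). Of 9 known targets of SOXC factors 7 were tested, none was called, 0 stood at an unadjusted p below 0.05, and the median was 0.15. MARCKS and STMN1, which act on the cytoskeleton, had log2 fold changes of 0.30 and 0.21. The 7 other sequence-specific HMG box factors were all tested, with 0 called and a median of -0.0087. CIC, a repressor in receptor tyrosine kinase signalling, had -0.35 (95% confidence interval -0.65 to -0.050) with an adjusted p of 0.699, and TCF7, a mediator of Wnt signalling, 0.39 (95% confidence interval -0.033 to 0.81) with 0.839. Of the 15 genes listed as overlapping or flanking a member 4 were in the table. The 2 that were tested were POLR2F and C11orf58, which shares 219 exonic bases with SOX6 on the opposite strand and had a log2 fold change of 0.020.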

How the data were processed

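Total RNA (125 ng per library) was made into 6 libraries. TopHat 1.4.0, HTSeq, DESeq and the build hg19 are named, per the submitters' processing notes. For the annotation, strand setting and overlap mode, nothing is given in the sources used here. The deposited values are the authors' raw read counts per gene symbol. The 5 class rows of htseq-count were left out of totals and tests: reads outside genes made up 39.4% to 46.9% of records, multiply placed reads 17.7% to 19.1%, and ambiguous ones 0.435% to 0.551%.

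Columns were matched by sample title. Groups were compared with the quasi-likelihood test of edgeR 4.0.16 (R 4.3.3, TMM, filterByExpr with a minimum count of 10 and total of 15, no covariate), adjusted by Benjamini and Hochberg over 10678 genes at 0.05. CPM use all assigned reads times the TMM factor. Confidence intervals of fold changes come from the F statistic, and counting intervals and floors cover counting error only. The test was checked on simulated counts. Replicates differed by more than sampling noise (chi-square per degree of freedom 2.11 to 7.03). Alternatives were other filters, other scalings, DESeq2 1.42.0, limma-voom (limma 3.58.1), a replicate block and leaving out each library; thinning, and a fit without both SOX10 replicate 1 and control replicate 3, were added after seeing the data. Lengths are from GENCODE release 29 and promoters from RefSeq, both on GRCh38, a later build than hg19.

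The 10 members and the lists were chosen with earlier results of these data known. Named genes are the members, the other SOX genes, and from each list any called gene and the 2 with the smallest p; SOX2-OT was added after its counts were seen.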

Additional observations from a re-analysis of the deposited data

How the results depend on the processing

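No SOX member was called under any of the 16 other settings. Under DESeq2, SOX4 and SOX2 had no adjusted p and could not be called. The lists of partners, of cofactors, of SOXC targets and of other HMG box factors had no calls either, while the SOXE target list kept 1 call under each. The number of genes called over the whole table, 12 in the main test, was 48 with no low-count filter, 7 with a replicate block, 7 without SOX10 replicate 1 and control replicate 3, and 6 to 18 without single libraries, the lowest being that without control replicate 1. The list of genes that overlap or flank a member had 1 call with no low-count filter, SOX2-OT, at a log2 fold change of 4.04, and 0 in the main test. Its values at 1 CPM ran from 2.99 with limma-voom to 6.62, and from 3.71 to 6.61 without single libraries. The sign of SOX10, SOX9, SOX4 and SOX2 held under all settings in which they were tested. Without single libraries the log2 fold change ran from 0.030 to 0.50 for SOX10, from -0.038 to 0.15 for SOX5, from -0.016 to 0.16 for SOX6, from -0.24 to 0.12 for SOX13 and from -0.28 to 0.10 for SOX12. That of SOX13 was 0.0022 with the replicate block, and without SOX10 replicate 1 and control replicate 3 it was 0.21 for SOX13 and 0.17 for SOX5. The cause of these changes was not tested. Members at an unadjusted p under 0.05, which numbered 2, were 0 to 2. Thinned to equal depth, 5 members had enough reads, without SOX4, SOX13 or SOX2. Same-numbered libraries did not deviate together, with correlations of -0.027, -0.032 and -0.13 across genes, so the numbers were not taken as pairs. The intervals of SOX13, SOX2, SOX4 and SOX8, genes of few reads, each spanned more than 2-fold. So did that of SOX10, with a fold from 0.87 to 1.87, although a 2-fold rise lay outside it.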
